A study of Mus musculus with 6 samples.

Results

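The genes described here encode the DNA replication machinery and the enzymes that supply it with deoxynucleotides, measured in primary OT-I T cells after 2 h of disulfiram (DSF), set against the solvent dimethyl sulfoxide (DMSO). The 43 members were chosen by name, from origin licensing to deoxynucleotide synthesis and the E2F activators, with the added condition of a mean count of at least 10 over the 6 libraries. All 43 names were found among the 55536 genes of the deposited table, of which 14260 reached that mean count, and the lowest member, Gins1, averaged 343 counts. The DSF group and the DMSO group each hold 3 libraries of T cells from mouse lymph nodes, labelled wildtype and kept in the same serum-containing medium. T cells of OT-I mice share a transgene-encoded receptor that recognises an ovalbumin peptide, so they stand for 1 receptor specificity, and mostly for CD8 T cells. The labels used here give neither the DSF concentration nor the age of the mice, nor say whether the cells were stimulated. The labels call the libraries biological replicates without naming animals or cultures, so p-values measure the spread between these libraries only.

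Before a cell copies its DNA, the origin recognition complex, Cdc6 and Cdt1 load rings of the Mcm2 to Mcm7 proteins on the origins. Cdc45, the GINS complex and Mcm10 then turn these rings into active helicases, and polymerases extend both strands with the sliding clamp Pcna, which the Rfc complex loads. Ribonucleotide reductase and thymidylate synthase make deoxynucleotides. E2F transcription factors drive many of these genes as a T cell leaves rest and enters S phase, and an activated CD8 T cell expresses them strongly while its clone expands.

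The libraries held 18082264 to 20951998 counts with DSF and 18528236 to 21893720 with DMSO. Of 9 CD8 T cell marker genes 4 fell with DSF (Cd3g, Cd247, Trac and Cd8a), and the summed transcripts-per-million values (TPM) of all 9 ran from 2752 to 2826 in DSF libraries and from 2901 to 2975 in DMSO libraries. Summed TPM of 4 CD4 T cell markers was 17.4 to 18.8 with DSF and 14.6 to 20.2 with DMSO, and Zbtb7b among them rose in counts (log2 fold change 0.27, adjusted p = 0.00307, edgeR). That of 7 B cell markers was 31.0 to 32.4 with DSF and 27.5 to 31.8 with DMSO. It was 42.6 to 45.8 with DSF and 44.1 to 47.0 with DMSO for 9 myeloid and dendritic cell markers. Among these, Siglech was at 0 in all 6 libraries and Xcr1 and Clec10a fell (log2 fold change -0.98 and -1.44, adjusted p = 2.73e-06 and 0.0209, edgeR). Clec10a had at most 26 counts in a library, and its TPM overlapped between the groups (0.34 to 0.68 with DSF, 0.61 to 1.2 with DMSO). For 4 natural killer cell markers the summed TPM was 17.2 to 17.8 with DSF and 19.5 to 21.1 with DMSO, and Eomes fell (log2 fold change -0.31, adjusted p = 7.28e-05, edgeR). For 7 stromal, endothelial and erythroid markers it was 17.4 to 19.97 with DSF and 19.3 to 21.4 with DMSO. Single genes made up most of some sums: Zbtb7b (13.1 to 18.3 TPM) of the CD4 T cell sum and Eomes (14.9 to 18.9 TPM) of the natural killer cell sum. Pecam1 (16.4 to 20.05 TPM) did so for the stromal, endothelial and erythroid sum. Cd4 stayed at or below 0.88 TPM, Ncr1 at or below 0.22 and Klra8 at or below 0.08. These sums therefore do not measure amounts of those cells. The part of these differences in the results on replication genes was not tested, and in bulk RNA fewer cells of a type and less RNA per cell cannot be told apart.

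The promoters of the 5 members that rose with DSF and of the 2 lower members with the smallest p are shown as far as RefSeq windows were matched, because E2F factors are the best known regulators of this module. The windows run from 250 bases before to 50 bases after the annotated start, 5′ to 3′ on the gene's strand, and were taken from RefSeq on GRCm38.p6. Capitals mark a match to 1 of 4 E2F forms, TTTCCCGC, TTTCGCGC, TTTGCCGC or TTTGGCGC, on either strand. Cdc6 is at chr11:98907901-98908200 (plus strand), Pold1 at chr7:44548766-44549065 (minus), E2f2 at chr4:136172024-136172323 (plus), Uhrf1 at chr17:56304063-56304362 (plus), Mcm10 at chr2:5012742-5013041 (minus) and Rrm2 at chr12:24708004-24708303 (plus). For E2f2 and Uhrf1, the window that holds the match is shown out of 2 windows each.
Cdc6: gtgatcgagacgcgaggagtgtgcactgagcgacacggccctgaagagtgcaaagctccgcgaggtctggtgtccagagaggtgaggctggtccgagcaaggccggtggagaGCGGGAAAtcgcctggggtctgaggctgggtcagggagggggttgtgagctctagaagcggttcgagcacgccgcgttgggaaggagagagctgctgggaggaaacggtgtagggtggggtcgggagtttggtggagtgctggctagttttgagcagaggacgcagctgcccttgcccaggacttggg
Pold1: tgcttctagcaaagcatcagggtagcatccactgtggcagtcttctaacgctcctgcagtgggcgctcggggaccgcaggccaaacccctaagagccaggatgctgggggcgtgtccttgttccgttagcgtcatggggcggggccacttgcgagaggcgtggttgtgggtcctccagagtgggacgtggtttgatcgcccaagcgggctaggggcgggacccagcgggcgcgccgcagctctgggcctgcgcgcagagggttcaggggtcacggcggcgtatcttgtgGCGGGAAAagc
E2f2: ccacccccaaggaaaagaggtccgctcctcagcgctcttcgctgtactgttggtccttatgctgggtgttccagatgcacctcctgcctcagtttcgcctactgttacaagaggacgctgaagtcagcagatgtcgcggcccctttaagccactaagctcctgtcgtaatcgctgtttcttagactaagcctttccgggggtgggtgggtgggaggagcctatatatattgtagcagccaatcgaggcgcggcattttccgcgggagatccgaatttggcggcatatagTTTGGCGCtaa
Uhrf1: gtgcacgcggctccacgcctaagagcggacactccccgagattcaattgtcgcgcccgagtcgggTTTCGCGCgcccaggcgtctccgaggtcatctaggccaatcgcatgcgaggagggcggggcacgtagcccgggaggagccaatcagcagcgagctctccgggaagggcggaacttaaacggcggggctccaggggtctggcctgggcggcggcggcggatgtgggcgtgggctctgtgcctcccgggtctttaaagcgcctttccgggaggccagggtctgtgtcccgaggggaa
Mcm10: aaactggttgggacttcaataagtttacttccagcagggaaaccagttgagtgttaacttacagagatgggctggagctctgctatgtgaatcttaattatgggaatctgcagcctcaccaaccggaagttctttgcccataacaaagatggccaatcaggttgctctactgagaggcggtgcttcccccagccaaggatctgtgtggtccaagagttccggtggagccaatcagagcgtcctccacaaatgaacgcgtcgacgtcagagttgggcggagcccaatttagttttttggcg
Rrm2: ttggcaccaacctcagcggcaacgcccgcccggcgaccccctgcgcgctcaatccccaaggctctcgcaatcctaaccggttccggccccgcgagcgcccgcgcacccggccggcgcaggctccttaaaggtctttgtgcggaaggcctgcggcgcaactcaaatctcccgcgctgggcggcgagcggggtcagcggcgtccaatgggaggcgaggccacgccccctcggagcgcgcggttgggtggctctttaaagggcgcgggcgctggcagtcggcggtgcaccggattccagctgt

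Of the 36 members with a window, 15 (41.7%) held at least 1 E2F form, against 2.6% of the 27025 genes with a window of the same length. The matches began 138 bases before the start in Cdc6 and 185 bases before it in Uhrf1, and 39 bases after it in Pold1 and in E2f2. By direction, all 4 of the higher members with a window (Cdc6, Pold1, E2f2 and Uhrf1), 1 of the 8 lower members (Rfc3) and 10 of the 24 members that did not pass the test held a match. Rfc3, whose window is not printed here, held 2 matches. Of the 15 members with a match 5 were called, and of the 21 without one 7 were called. These counts are a description with no test, and a match is not a shown binding site. A missing match does not show that no site exists, since only exact forms within the window were searched. The Mcm10 window ends in the bases TTTGGCG, so whether the form TTTGGCGC is complete there was not determined. CCAAT was found in 59.5% of the members' 42 windows and in 37.4% of the 32851 windows of all genes, and GGGCGG in 73.8% of the members' windows and 35.7% of all. Matches to different E2F forms overlap in Mcm5 and in Mcm6. No window was matched for Prim2, Gins1, Gins2, Gins4, Mcm4, Rfc2 and Pole.

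The comparison asked whether the replication module differed after 2 h of DSF. Most of it did not pass the test, and what did was small and went both ways. By edgeR's quasi-likelihood test with Benjamini-Hochberg adjustment over all 14318 genes tested, 5 members rose (Uhrf1, E2f2, Gins2, Pold1 and Cdc6), 8 fell (Mcm10, Rrm2, Rrm1, Fen1, Rfc3, Mcm2, Rfc4 and Tyms) and 30 did not pass at an adjusted p under 0.05. The 13 calls are 30.2% of the members, against 22.9% of all genes tested, of which 11.6% were higher and 11.3% lower. Among the 7742 genes with a mean of at least 17.3 counts-per-million units (CPM), the level of the lowest member, 31.8% were called (16.4% lower and 15.5% higher), so the members' share lay close to that of genes at their level.

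The changes were narrow in size. The largest change was the 14.8% fall of Mcm10, and no member changed 1.2-fold, whereas 13% of the genes at or above the lowest member's level did. The log2 fold changes ran from -0.23 for Mcm10 to 0.18 for Gins2. Their median was -0.035, against -0.003 over all genes tested and -0.011 over genes at the members' level. The median absolute log2 fold change was 0.075 in the members, 0.123 over all genes tested and 0.087 over genes at the members' level. For 34 of the 43 members the 95% interval lay within 1.2-fold either way, as it did for 68.9% of the genes at their level. The median half-width of the members' intervals was 0.10 on the log2 scale. In 8 members every DSF library was above every DMSO library, against 17.6% of all genes tested and 21.1% of genes at the members' level. In 15 members every DSF library was below every DMSO library, against 17.9% of all genes tested and 23.6% of genes at the members' level. Both kinds together made up 35.4% of all genes tested and 44.7% of genes at the members' level. The groups overlapped in 20 of the 43 members, against 4284 of the 7742 genes at their level. The difference from these shares was not tested.

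The calls rest on deposited counts that are not corrected for transcript length. On the TPM scale, limma called 1 member, Uhrf1, and 746 higher and 513 lower genes in all, and edgeR with length offsets called 2 members, Uhrf1 and Rrm2. The summed TPM of the 43 members was 2761 to 2823 in the DSF libraries and 2762 to 2832 in the DMSO libraries, so the summed TPM overlapped between the groups. The summed CPM overlapped only at the edge, with 4673.5 to 4737.6 with DSF and 4737.5 to 4779.2 with DMSO. The log2 fold change was below 0 in 25 members and above 0 in 18. The members' median deviation from each gene's mean log2 CPM was -0.036 to -0.01 in the DSF libraries and 0.011 to 0.023 in the DMSO libraries. Leaving out DSF library 3 left 4 lower and 2 higher members, leaving out DSF library 1 or DMSO library 3 left 4 lower ones, and leaving out DMSO library 1 left 5 lower ones.

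**Figure D1:**
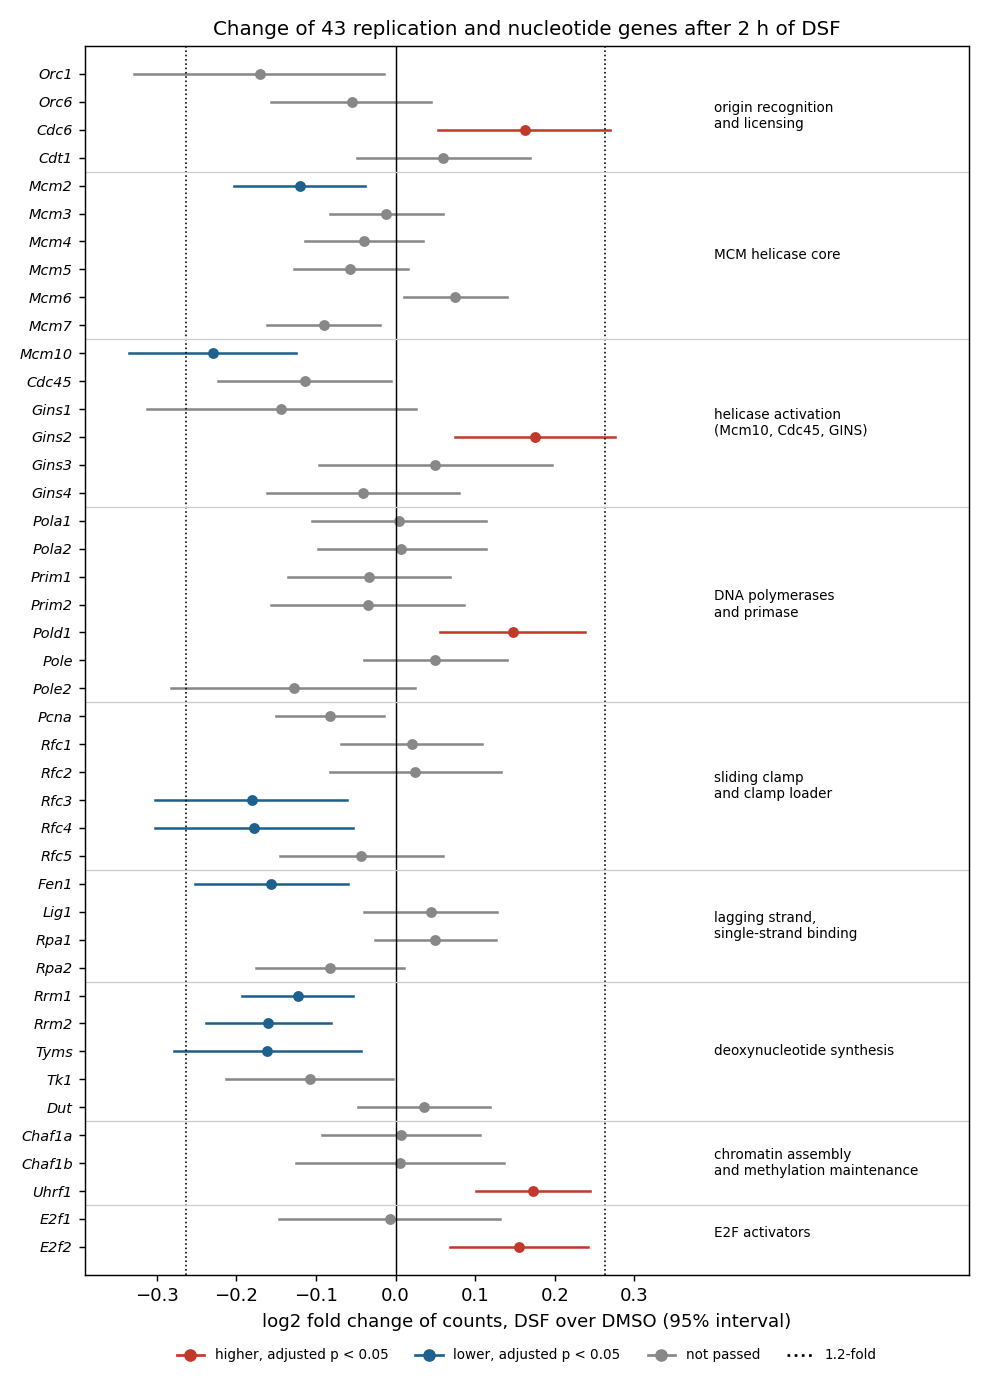
Log2 fold change of each of the 43 members, DSF over DMSO, by edgeR's quasi-likelihood test, in order of role; points are estimates and bars 95% intervals. Every point lies between -0.23 (Mcm10) and 0.18 (Gins2), and 5 higher and 8 lower members passed the adjusted test.

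Of the 4 licensing genes, which mark origins and load the helicase, 1 rose. Cdc6, the ATPase that recruits the MCM ring to the origin complex, had 62.1, 56.7 and 60.0 CPM in the DSF libraries, against 55.0, 49.9 and 54.9 CPM in the DMSO libraries. The groups did not overlap, with a log2 fold change of 0.16 ± 0.05 (SE; adjusted p = 0.0255, edgeR). Its partner Cdt1, which delivers the ring, had 68.6, 71.96 and 68.7 CPM with DSF and 63.6, 73.1 and 63.8 CPM with DMSO, and the groups overlapped (log2 fold change 0.06, 95% interval -0.05 to 0.17). Orc1, the ATPase subunit of the origin recognition complex and the member with the lowest TPM, had 16.6, 18.4 and 17.4 CPM with DSF and 19.98, 20.5 and 18.4 CPM with DMSO. All DSF libraries were below all DMSO libraries for Orc1, but the change did not pass (adjusted p = 0.116, edgeR). Orc6, another subunit of that complex, had 52.3, 51.5 and 50.7 CPM with DSF and 53.0, 53.9 and 53.5 CPM with DMSO, without overlap and without passing (adjusted p = 0.488, edgeR). The Cdc6 call was lost without DMSO library 2 (adjusted p = 0.207), DSF library 1 (0.135) or DSF library 3 (0.0736). The log2 ratio of Cdc6 to Cdt1 was 0.10 higher with DSF, with an exact permutation p of 0.5 over the 6 libraries (two-sided, adjusted over 4 gene pairs 0.5; the smallest p possible is 0.1), and it was -0.02 without DMSO library 2.

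Of the 6 subunits of the MCM ring, the core of the replicative helicase, 1 fell and 5 did not pass. Mcm2 had 138.0, 146.6 and 142.6 CPM with DSF, against 152.7, 150.8 and 161.0 CPM with DMSO, a log2 fold change of -0.12 ± 0.04 (SE; adjusted p = 0.0282, edgeR). All DSF libraries lay below all DMSO libraries, and the call was lost without DMSO library 3 (adjusted p = 0.173), DSF library 1 (0.151) or DSF library 3 (0.095). Mcm6 had 374.2, 379.6 and 380.6 CPM with DSF and 356.0, 366.8 and 353.9 CPM with DMSO. For Mcm6 the DSF libraries were all higher, but the change did not pass (log2 fold change 0.08, adjusted p = 0.0925, edgeR). Mcm7 and Mcm5 were lower in every DSF library than in any DMSO library (log2 fold change -0.09 and -0.06) without passing, and Mcm3 and Mcm4 overlapped between the groups. The ring contains 1 copy of each subunit, while the transcript levels per length differed: mean TPM over the 6 libraries was 166 for Mcm6, 151 for Mcm3, 133 for Mcm7, 109 for Mcm5, 72.8 for Mcm4 and 59.4 for Mcm2.

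Of the 6 genes that turn the loaded ring into an active helicase, 1 rose and 1 fell. Mcm10, which is needed to start unwinding, had 49.0, 49.2 and 52.1 CPM with DSF, against 57.7, 61.6 and 57.0 CPM with DMSO. The groups did not overlap, and its log2 fold change of -0.23 ± 0.05 (SE; adjusted p = 0.00101, edgeR) was the largest among the 43 members. Gins2, a subunit of the GINS complex, had 71.4, 70.0 and 75.6 CPM with DSF, against 63.8, 66.2 and 62.1 CPM with DMSO, also without overlap (log2 fold change 0.18 ± 0.05, adjusted p = 0.00857, edgeR). The other GINS genes did not pass. Gins3 had 20.6, 20.01 and 21.1 CPM with DSF and 20.3, 19.5 and 19.9 CPM with DMSO, which overlap. Gins4 had 36.7, 36.7 and 37.9 CPM with DSF and 41.4, 37.7 and 35.7 CPM with DMSO, which overlap too. Cdc45, the helicase cofactor, was lower in every DSF library (log2 fold change -0.11, adjusted p = 0.129, edgeR), and Gins1 overlapped between the groups. The Gins2 call was lost without DSF library 3 (adjusted p = 0.0833), its log2 ratio of mean TPM was 0.07, and its exons overlap Gse1 on the opposite strand.

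**Figure D2:**
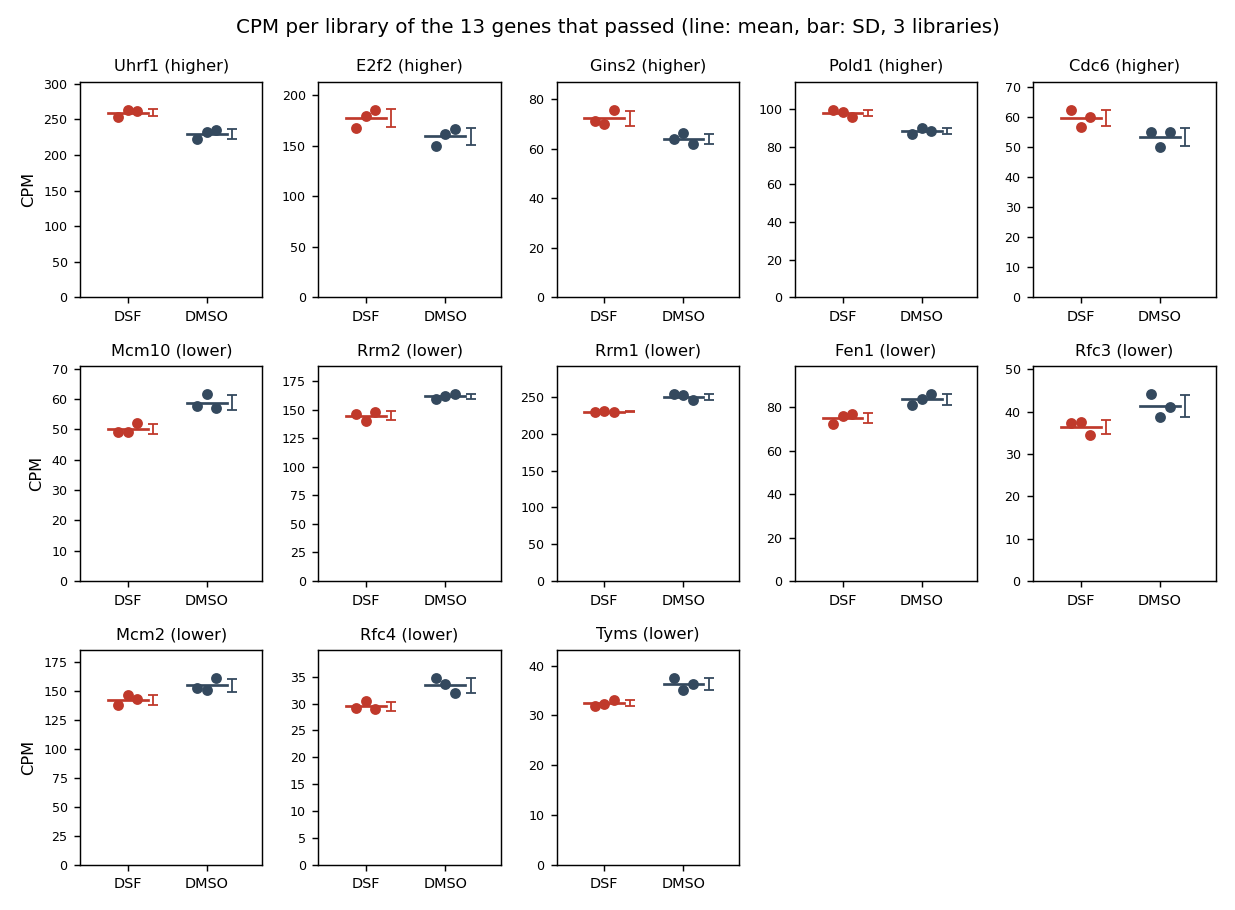
Level of the 13 members that passed the test in CPM, with 1 panel a gene and axes that start at 0; points are libraries, DSF left of DMSO, lines are means and bars SD (n = 3 each). In each of the 13, the 3 DSF libraries lie on 1 side of the 3 DMSO libraries.

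Of the 7 polymerase and primase genes, 1 rose. Pold1, the catalytic subunit of DNA polymerase delta, had 99.4, 98.5 and 96.1 CPM with DSF, against 86.9, 89.98 and 88.5 CPM with DMSO. The groups did not overlap (log2 fold change 0.15 ± 0.04, SE; adjusted p = 0.0145, edgeR). Pold1 was not called on the TPM scale (log2 fold change 0.09, adjusted p = 0.345, limma). Nor was it called with length offsets (log2 fold change 0.07, adjusted p = 0.484, edgeR). Pola1, the catalytic subunit of the primase-bound polymerase alpha, had 48.5, 50.003 and 49.0 CPM with DSF and 52.7, 46.2 and 48.4 CPM with DMSO. Its groups overlapped, and the 95% interval of its log2 fold change ran from -0.11 to 0.11. Pola2, Prim1, Prim2, Pole and Pole2, the other members of this role, overlapped between the groups as well. They encode subunits of polymerases alpha and epsilon and of the primase, and their log2 fold changes ran from -0.13 to 0.05.

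Of the 6 genes of the sliding clamp and its loader, 2 loader subunits fell. Rfc3 had 37.4, 37.5 and 34.5 CPM with DSF, against 44.1, 38.8 and 41.1 CPM with DMSO (log2 fold change -0.18 ± 0.06, SE; adjusted p = 0.0238, edgeR). Rfc4 had 29.1, 30.5 and 29.0 CPM with DSF, against 34.8, 33.6 and 31.95 CPM with DMSO (log2 fold change -0.18 ± 0.06, SE; adjusted p = 0.0327, edgeR). Both were lower in every DSF library. Pcna, the clamp itself and the member with the highest TPM, had 416.0, 427.3 and 427.2 CPM with DSF and 468.0, 436.3 and 440.6 CPM with DMSO. For Pcna, DMSO library 1 was the highest and the groups did not overlap, but the change did not pass (log2 fold change -0.08, adjusted p = 0.0778, edgeR). Rfc1, the large loader subunit, had 117.8, 113.1 and 111.2 CPM with DSF and 116.5, 111.9 and 108.9 CPM with DMSO, and overlapped as Rfc2 and Rfc5 did. The Rfc3 call was lost without DMSO library 1 (adjusted p = 0.13), DMSO library 3 (0.0572) or DSF library 3 (0.166). Rfc4 passed in 1 of the 6 fits that left out a library, without DMSO library 3, and its adjusted p was 0.105 without DMSO library 1, 0.0813 without DMSO library 2, 0.0957 without DSF library 1, 0.05 without DSF library 2 and 0.131 without DSF library 3.

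Of the 4 genes for single-strand binding and for joining the lagging strand, 1 fell. Fen1, the nuclease that trims Okazaki fragment flaps, had 72.4, 75.9 and 76.9 CPM with DSF, against 81.2, 83.7 and 86.1 CPM with DMSO, without overlap (log2 fold change -0.16 ± 0.05, SE; adjusted p = 0.0146, edgeR). Leaving out DMSO library 3 (adjusted p = 0.0796) ended the call, as did leaving out DSF library 1 (0.0938). Rpa1, the large subunit of the single-strand binding protein, had 169.1, 163.2 and 163.7 CPM with DSF and 159.1, 160.5 and 159.3 CPM with DMSO. Its DSF libraries were all higher by a small margin that did not pass (log2 fold change 0.05, adjusted p = 0.39, edgeR). Rpa2 was lower in every DSF library without passing, and Lig1, the ligase that seals the fragments, overlapped between the groups.

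Of the 5 deoxynucleotide genes, 3 fell and 2 did not pass. Lower calls made up 11.3% of all genes tested and 16.4% of genes at the members' level, and the difference from these shares was not tested. Rrm1, the large subunit of ribonucleotide reductase, had 229.1, 231.1 and 229.4 CPM with DSF, against 253.6, 251.9 and 245.8 CPM with DMSO (log2 fold change -0.12 ± 0.03, SE; adjusted p = 0.00717, edgeR). Rrm2, the small subunit that is made in S phase, had 145.8, 140.2 and 147.7 CPM with DSF, against 159.2, 161.8 and 163.5 CPM with DMSO (log2 fold change -0.16 ± 0.04, SE; adjusted p = 0.00224, edgeR). Both subunits were lower in every DSF library, and both calls were made in all 6 fits that left out a library. On the TPM scale neither was called, and Rrm1 had a log2 fold change of -0.05 there (adjusted p = 0.432, limma). With length offsets Rrm2 was called and Rrm1 was not (log2 fold change -0.08, adjusted p = 0.211, edgeR). Tyms, which makes the thymidine nucleotide, had 31.98, 32.3 and 33.1 CPM with DSF, against 37.5, 35.2 and 36.3 CPM with DMSO (log2 fold change -0.16 ± 0.06, SE; adjusted p = 0.0424, edgeR). Tyms did not overlap between the groups either. Tk1, the thymidine salvage kinase, had 60.1, 65.0 and 59.3 CPM with DSF and 66.2, 68.9 and 63.6 CPM with DMSO, with overlap (adjusted p = 0.14, edgeR). Dut, which removes dUTP, had 127.5, 126.0 and 125.2 CPM with DSF and 124.7, 124.3 and 120.4 CPM with DMSO, all higher with DSF without passing (adjusted p = 0.606, edgeR).

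The summed level of these 5 genes was 594.5 to 594.7 CPM in the DSF libraries and 629.6 to 642.0 CPM in the DMSO libraries. This sum includes the called genes Rrm1, Rrm2 and Tyms, so it adds no separate result. The ratio of Rrm2 to Rrm1 changed by -0.04 on the log2 scale, and that of Tyms to Tk1 by -0.05. The exact permutation p was 0.5 for each (two-sided, adjusted 0.5), where the smallest p possible is 0.1. Tyms passed only without DMSO library 2: its adjusted p was 0.118 without DMSO library 1, 0.0906 without DMSO library 3, 0.119 without DSF library 1, 0.126 without DSF library 2 and 0.0791 without DSF library 3. In TPM, Tyms averaged 27.0 with DSF and 33.1 with DMSO, a log2 ratio of -0.29. Tyms was called neither by limma on the TPM scale nor by edgeR with length offsets. Its length, estimated from counts over TPM, had a log2 ratio of 0.149, DSF over DMSO.

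Of the 3 chromatin genes, which restore nucleosomes and DNA methylation behind the fork, 1 rose. Uhrf1, which binds hemimethylated DNA and brings in the maintenance methyltransferase, had 253.7, 262.7 and 261.6 CPM with DSF, against 222.2, 232.2 and 235.8 CPM with DMSO. The groups did not overlap, and the log2 fold change was 0.17 ± 0.03 (SE; adjusted p = 0.00036, edgeR). Uhrf1 (ENSMUSG00000001228, chr17:56303321-56323486 of GRCm38, plus strand) was called under all 13 alternatives, with a largest adjusted p of 0.0194. Chaf1b, a subunit of the histone chaperone that works at the fork, had 28.4, 29.3 and 31.2 CPM with DSF and 29.2, 30.9 and 28.4 CPM with DMSO. Chaf1b and Chaf1a, the large subunit of the same chaperone, overlapped between the groups.

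Of the 2 E2F activators, 1 rose. E2f2 had 167.7, 179.3 and 185.2 CPM with DSF, against 150.3, 161.5 and 166.3 CPM with DMSO. The groups did not overlap (log2 fold change 0.16 ± 0.04, SE; adjusted p = 0.00735, edgeR), and the call was lost without DSF library 3 (adjusted p = 0.0856). E2f1 had 23.9, 25.5 and 24.8 CPM with DSF and 23.4, 25.8 and 25.3 CPM with DMSO, and overlapped (log2 fold change -0.01, 95% interval -0.15 to 0.13). The log2 ratio of E2f2 to E2f1 was 2.81, 2.81 and 2.90 in the DSF libraries, against 2.68, 2.64 and 2.71 in the DMSO libraries. All 3 DSF ratios were higher, by 0.16 on average, with an exact permutation p of 0.1 (two-sided, adjusted over 4 pairs 0.4). That is the smallest p that 3 libraries against 3 allow, so this test could not have passed 0.05 for any of the 4 pairs.

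**Figure D3:**
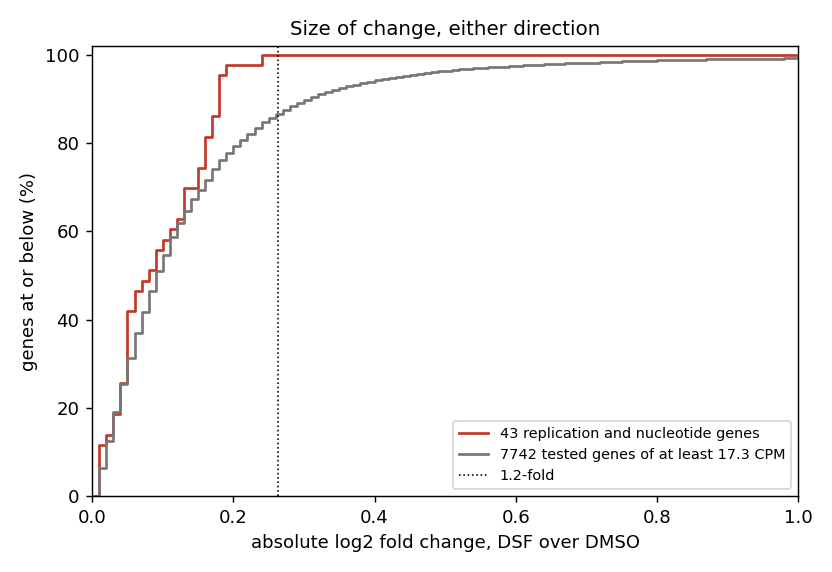
Cumulative share of genes by absolute log2 fold change, DSF over DMSO, for the 43 members and for the 7742 genes at or above the lowest member's level, with a dotted line at 1.2-fold. No member reaches 1.2-fold, which 13% of the genes at that level do.

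Per transcript length, the members ranged from 9.35 mean TPM over the 6 libraries (Orc1) to 433 (Pcna), with a median of 42.9, against 12.6 for all genes tested. Most neighbours in this order could not be separated: in 6 of 42 adjacent pairs the libraries did not overlap, below Pcna, Dut, Uhrf1, Chaf1b, Pole2 and Gins3. Within the roles, the highest and lowest mean TPM belonged to Orc6 and Orc1, Mcm6 and Mcm2, Gins4 and Gins3, Pold1 and Pola1, Pcna and Rfc1, Rpa1 and Fen1, Dut and Tyms, Uhrf1 and Chaf1b, and E2f2 and E2f1.

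**Figure D4:**
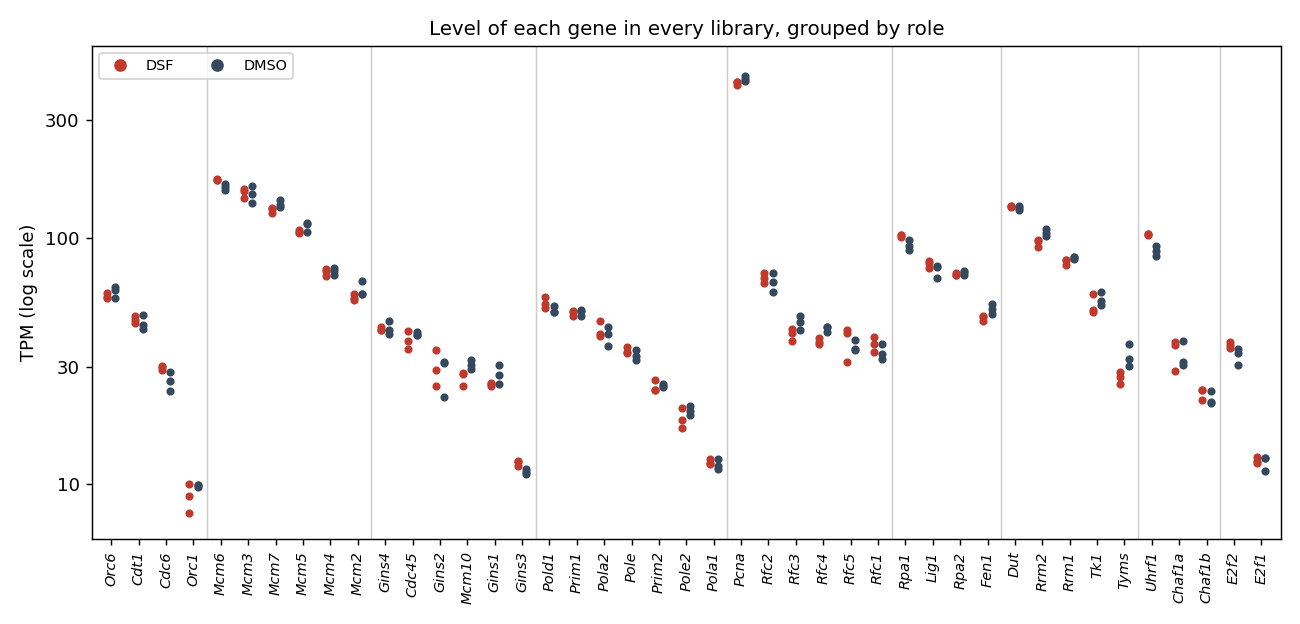
TPM of each member in the 6 libraries on a log axis, grouped by role and in order of mean level within a role, with DSF points left of DMSO points. Levels run from 9.35 (Orc1) to 433 (Pcna) in mean TPM, and the libraries of most neighbours overlap.

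The 43 genes lie on 14 chromosomes. Exons of 13 members overlap an antisense gene and those of 3 members (Mcm7, Pole2 and Rpa1) a gene in sense, and the sources name no strand setting for the counting. Among the called members these were Fen1 (Tmem258 and Gm10143), Gins2 (Gse1) and Rfc4 (Eif4a2), whose counts are uncertain to that extent. Estimated counts were not whole in all 6 libraries for Fen1, Gins2, Pole2, Rfc2, Rfc5, Rrm1 and Tyms.

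A further 86 tested genes of the same pathways were set beside the members: 4 rose, 19 fell and 63 did not pass (26.7% called). That share compares with 22.9% of all genes tested and 31.8% of genes at the members' level, of which 16.4% were lower and 15.5% higher. The log2 fold change was below 0 in 68 of the 86 genes and above 0 in 18. Among the 7742 genes at the members' level it was below 0 in 4138 and above 0 in 3604. The summed CPM of the 86 genes was 7895 to 7904 with DSF and 8215 to 8308 with DMSO. Their summed TPM was 4735 to 4859 with DSF and 4879 to 4939 with DMSO, and the cause was not tested. Both sums include the 4 higher and 19 lower genes, so they add no separate result. On the TPM scale limma called 1 higher and 3 lower, and without DSF library 1 edgeR called 2 higher and 12 lower, and without DSF library 2 also 12 lower. Purine synthesis genes gave 5 falls among 13. Pfas, a middle step of the pathway, averaged 60.5 CPM with DSF and 73.6 CPM with DMSO (log2 fold change -0.28, adjusted p = 7.97e-05, edgeR). Ppat, its first committed step, averaged 90.2 CPM with DSF and 106 CPM with DMSO, and Atic, its last enzyme, 149 CPM with DSF and 170 CPM with DMSO. Ppat and Atic both passed (log2 fold change -0.23 and -0.19, adjusted p = 0.000189 and 0.000325, edgeR), and the other falls were Gart and Gmps.

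Of 23 further pyrimidine and deoxynucleotide genes, 1 rose and 5 fell. These are 26.1% of the list, against 22.9% of all genes tested and 31.8% of genes at the members' level. Samhd1, which breaks deoxynucleotides down, averaged 346 CPM with DSF and 410 CPM with DMSO (log2 fold change -0.25, adjusted p = 3.5e-07, edgeR). Ctps, which makes CTP, averaged 44.1 CPM with DSF and 54.2 CPM with DMSO (log2 fold change -0.30, adjusted p = 3.26e-05, edgeR). The list thus held falls of a gene that makes nucleotides and of one that removes deoxynucleotides. Umps, the last enzyme of uridine monophosphate synthesis, averaged 101 CPM with DSF and 85.7 CPM with DMSO and rose (log2 fold change 0.23, adjusted p = 0.000213, edgeR). Mthfd1, Shmt1 and Cmpk2 made up the other falls.

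Of 25 further fork and replisome genes, 5 fell. These are 20% of the list, against 11.3% lower among all genes tested and 16.4% lower among genes at the members' level. Top1, the topoisomerase that relaxes DNA ahead of the fork, averaged 124 CPM with DSF and 141 CPM with DMSO (log2 fold change -0.18, adjusted p = 0.000733, edgeR). Top2a, which untangles the copied strands, averaged 612 CPM with DSF and 672 CPM with DMSO (log2 fold change -0.13, adjusted p = 0.00213, edgeR). Tipin, a fork protection factor, averaged 55.2 CPM with DSF and 62.1 CPM with DMSO (log2 fold change -0.17, adjusted p = 0.0121, edgeR), and the other falls were Dna2 and Pole4. The Tipin call was lost without DMSO library 2 (adjusted p = 0.0742), DSF library 1 (0.0618) or DSF library 3 (0.0645). Of 14 further licensing and firing genes, 0 were called by edgeR, with 2 at an unadjusted p under 0.05 (Dbf4 and Recql4), and 0 by DESeq2. Recql4, a helicase gene, was called lower with the replicate block (adjusted p = 0.0366) and without DMSO library 1 (0.0169), against 0.0749 in the fit of all libraries with no block.

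Of 11 further E2F, dimerization partner and pocket protein genes, 3 rose and 4 fell, 63.6% of the list. Called genes made up 22.9% of all genes tested and 31.8% of genes at the members' level. The difference from these shares was not tested, and the list was chosen with earlier results known. E2f7, a repressor of the E2F family, averaged 23.7 CPM with DSF and 18.7 CPM with DMSO, the largest rise among the 86 genes (log2 fold change 0.34, adjusted p = 0.000782, edgeR). Rbl2, a pocket protein of resting cells, averaged 117 CPM with DSF and 134 CPM with DMSO and fell (log2 fold change -0.20, adjusted p = 0.000738, edgeR). Rb1, the retinoblastoma protein gene, averaged 76.3 CPM with DSF and 67.9 CPM with DMSO and rose (log2 fold change 0.17, adjusted p = 0.0102, edgeR). Tfdp2 rose, and Rbl1, E2f4 and E2f6 fell. The Rb1 call was lost without DSF library 1 (adjusted p = 0.0702). Of the 86 genes, 4 changed at least 1.2-fold: E2f7, Cmpk2, Ctps and Pfas. Of the 12 further genes given with values, Samhd1, Ctps and Umps were also called on the TPM scale and 9 were not, and E2f7, Pfas and Tipin were not called with length offsets either (adjusted p = 0.123, 0.138 and 0.177).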

How the data were processed

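RNA libraries of 3 DSF and 3 DMSO samples were compared. The deposited table gives expected counts, TPM and group mean TPM per gene, per the file headers. The authors' log2 fold changes and adjusted p-values stand in deposited tables titled DESeq2. The build is GRCm38 or mm10 per the submitters' processing notes, and the sources used here name no aligner, counter or strand setting. Columns were mapped through group mean TPM, which matched in 55536 genes within 0.0001 TPM (crossed: 28853), reading DO and DF as DMSO and DSF. Of columns per library 0 were unused.

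The design had assumed whole counts; expected counts (31.6 to 32.9% of values above 0 not whole) were rounded. filterByExpr kept 14318 genes. edgeR 4.0.16 (R 4.3.3) fitted robust quasi-likelihood models after TMM scaling (factors 0.9952 to 1.0053) with group as the only term, called at an adjusted p under 0.05. SE is the size of the log2 fold change divided by the root of F. CPM are TMM-scaled. Alternatives used limma 3.58.1 on TPM, DESeq2 1.42.0, other filters and scaling, a replicate block, length offsets and libraries left out. Positions are from GENCODE M21. The code was tested on simulated data. A replicate pair within a group differed by a chi-square of 2.16 to 4.01 per degree of freedom, so each library was kept.

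Members and lists were chosen with earlier results of these data known. Library values were given for called members, for Mcm2, Pcna, Cdc6, Cdt1, Rrm1, Rrm2, Tyms, E2f1 and E2f2, and for the highest and lowest TPM of each role; means were given for the 3 called genes of smallest p in each further list.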

Additional observations from a re-analysis of the deposited data

How the results depend on the processing

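No called member changed direction under the 13 alternatives to the reported fit of 8 lower and 5 higher members, but the calls depended on the scale. DESeq2 gave 5 lower and 4 higher members. On log2(TPM + 1) and on log2(TPM + 0.1), limma gave 0 lower and 1 higher member each, and edgeR with length offsets, chosen after seeing the data, gave 1 lower and 1 higher. Leaving out 1 library gave 4 to 7 lower and 2 to 5 higher members. Over the 86 further genes, 19 lower and 4 higher in the reported fit, limma gave 3 lower and 1 higher on either TPM scale, the length offsets 10 lower and 2 higher, and fits without 1 library 12 to 16 lower and 2 to 5 higher. Over all genes, limma gave 513 lower and 746 higher with a pseudocount of 1 and 520 lower and 770 higher with 0.1, and the length offsets 817 lower and 950 higher. The members' median log2 fold change was -0.01 on both TPM scales and -0.039 to -0.017 without 1 library. The log2 ratio of Cdc6 to Cdt1 differed by -0.016 to 0.155 without 1 library. The cause of these differences was not tested, and the fits without 1 library also rest on fewer libraries. Without a filter on low counts 12 members passed (Tyms was lost), and DESeq2's size factors in edgeR changed no member's call.

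Among members that did not pass, 10 changed sign under some alternative. Mcm3 was at 0.021 on both TPM scales, Rfc5 at 0.061 and 0.062 on these and 0.05 with length offsets, E2f1 at 0.023 and 0.025 and at 0.0 with offsets, and Dut at -0.0 with offsets. Without 1 library the log2 fold changes spanned -0.033 to 0.006 for Mcm3, -0.083 to 0.018 for Gins4, -0.04 to 0.058 for Pola1, -0.026 to 0.053 for Pola2, -0.019 to 0.07 for Rfc2, -0.038 to 0.05 for Chaf1a, -0.033 to 0.041 for Chaf1b and -0.046 to 0.021 for E2f1.

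The replicate numbers were not taken as pairs, since same-numbered libraries correlated at 0.045, 0.035 and 0.055 in their deviations from the group means, although each library correlated best with its own number. With the replicate block, 10 members were lower and 6 higher, adding Mcm7 (adjusted p = 0.0146), Pcna (0.0289) and Mcm6 (0.0265), and 21 of the further genes were lower and 5 higher. With 2 E2F forms, 12 members held a match, and with a window starting 150 bases before the start, 14. With 3 libraries a group, the members' 95% intervals had a median half-width of 0.101 on the log2 scale, which limits what could be detected.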

Other observations

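The authors' deposited table also holds comparisons with a group coded DC, which the labels do not explain and of which no library was analysed here. In that table, for DC over DO, 0 of the 43 members were called, with adjusted p from 0.779 to 1 and log2 fold changes from -0.17 to 0.08, and 0.652% of the 14260 genes with a mean count of at least 10 were called. For DC over DF, the authors' deposited table calls 2 members higher and 3 lower, 11.6% against 13.4% of those genes. There, Mcm10 has a log2 fold change of 0.22 (adjusted p = 0.00929) and Rrm1 of 0.10 (adjusted p = 0.0189). Uhrf1 has -0.11 (adjusted p = 0.011), E2f2 -0.18 (adjusted p = 0.000561) and Gins2 -0.20 (adjusted p = 0.00827) in the authors' deposited table. For DF over DO the authors' deposited table calls 4 members higher and 4 lower, 18.6% against 16.3% of those genes and fewer than the 13 called by edgeR here. It gives -0.23 for Mcm10, -0.12 for Rrm1, 0.17 for Uhrf1, 0.16 for E2f2 and 0.18 for Gins2. These comparisons share samples, so the values are given side by side only.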
